A study of Mus musculus with 40 samples.

Results

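In sorted mouse follicular (FO) B cells, 59 of 24732 genes were lower without the transcription factor Ikaros after both of the stimuli in the study. A gene was a member when the mean of the loss group was at least 1.5 times below that of its controls, in cells exposed to hen egg lysozyme (HEL) and in cells stimulated with CpG. The members were chosen by the log2 ratio of group mean TPM, a transcript's share of a library corrected for its length, with 1 added to each mean, and -0.585 or less was needed in both comparisons. The control mean had to reach 5 TPM in both, which 7630 genes did. Antigen receptor segments and 9 named genes were left out beforehand, and 7 genes that met the numbers are missing for that reason, among them Ikzf1 itself, Satb1, Cxcr5, S1pr1 and Cd2. Because the HEL and CpG libraries chose the members, their values there are a description and carry no test. Naive and anergic cells played no part in the choice and were tested.

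Donor mice were C57BL/6 with the MD4 transgene, which gives their B cells a receptor that recognises HEL. Ikaros is encoded by Ikzf1, and loxP-flanked (fl) alleles were deleted with Cd23-cre, which is active only from a late step of B cell maturation. For HEL, mice were injected and cells sorted after 1 day, from Ikzf1(fl/fl) mice with Cd23-cre (5 libraries) or without it (5 libraries). Cre was thus present in the loss group only, so effects of Cre and of the deletion cannot be told apart there. For CpG, a ligand of Toll-like receptor 9, cells were kept in culture for 1 day, and both groups carried Cre: Ikzf1(fl/-) cells (4 libraries) were compared with Ikzf1(fl/+) cells (4 libraries), whose other allele stays intact. Naive cells with the same genotypes, Cd23-cre Ikzf1(fl/-) and Cd23-cre Ikzf1(fl/+), gave 2 libraries each, numbered in a series that begins with 36. Anergic cells, which meet soluble HEL throughout life because the mice also carry the ML5 transgene, gave 3 libraries of Ikaros-sufficient genotypes: Ikzf1(fl/fl), Ikzf1(fl/+), and Cd23-Cre Ikzf1(fl/+). They were compared with 3 naive libraries numbered alike, in a series that begins with 57, of which 2 were Ikzf1(fl/+) without Cre and 1 was Cd23-cre Ikzf1(fl/+).

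Libraries held 12126702 to 25424364 recovered reads. The sex of the mice was read from Y-linked transcripts, which gave 20 male and 8 female libraries. Ikzf1 itself was lower in each loss library than in any control of its comparison, at 60.3 to 79.3 TPM with HEL, 31.7 to 39.5 TPM with CpG and 57.3 to 65.3 TPM in naive cells. Cd79a, a chain of the B cell receptor complex, was at 762 to 9023 TPM, while Cd3e, a T cell receptor component, stayed at 3.97 TPM or less. Nothing in the labels ties replicates to separate mice, so a p-value here reflects library spread that may be partly technical. In bulk RNA, fewer cells of a type and less RNA per cell cannot be told apart.

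Ikaros is a zinc finger protein that binds DNA and recruits chromatin complexes, above all the Mi-2/NuRD remodeller. It is required for lymphocyte development and can both silence and activate genes. Interferon-stimulated genes, which recur among the members, are switched on by type I interferon through a repeated GAAA element in their promoters.

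By known function the members fell into 12 interferon-inducible genes and 47 others. Of the 12, 7 are on a list of interferon-stimulated genes (Ifit3, Rsad2, Irf7, Ifit1, Oasl1, Rtp4, Isg15), and 5 were placed with them after their values were seen (Pydc3, Pydc4, Gm14446, Phf11a, Cmpk2). The other 47 are 6 surface receptors and ligands, 6 receptor adaptors, 5 signalling enzymes, 5 transcription factors and regulators, 3 ubiquitin ligases, 6 proteins of membrane traffic, 15 of other or unknown function and 1 model without a gene symbol. Reads of Pced1b, Tmem243, Fam69a and 1110054M08Rik may belong in part to neighbours, since the files mark these models as overlapping another gene.

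The interferon-inducible members differed from the rest in their promoters. Promoter windows of 300 bases, 250 before and 50 after the transcription start, were taken from RefSeq (GRCm38.p6). They were found for 47 of the 59 members, 6 of them through an older symbol. The core of the interferon response element, GAAANNGAAA on either strand, was present in 8 of 11 interferon-inducible members with a window (72.7%) and in 2 of 36 others (5.56%). Over all 27025 genes with a window the share was 3.99%. The 12 were grouped by their known response to interferon, so the difference may follow from the grouping and is a description. The core of the Ikaros motif, TGGGAA on either strand, was present in 12 of the 47 members (25.5%), close to the 28.3% of all genes. The 250 bases before the start of 4 of these genes are printed to show the element, which is in capitals and reads TTTCNNTTTC where it lies on the other strand.
Ifit3: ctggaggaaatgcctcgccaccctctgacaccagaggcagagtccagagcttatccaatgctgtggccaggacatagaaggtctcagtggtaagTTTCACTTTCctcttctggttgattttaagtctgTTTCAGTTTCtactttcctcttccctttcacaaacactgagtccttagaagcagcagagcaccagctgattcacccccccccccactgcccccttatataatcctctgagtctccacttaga
Rsad2: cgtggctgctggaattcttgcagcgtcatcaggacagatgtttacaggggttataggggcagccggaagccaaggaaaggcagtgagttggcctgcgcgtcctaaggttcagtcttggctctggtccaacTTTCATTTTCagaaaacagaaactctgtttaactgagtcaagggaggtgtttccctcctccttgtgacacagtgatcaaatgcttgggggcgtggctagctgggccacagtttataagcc
Ifit1: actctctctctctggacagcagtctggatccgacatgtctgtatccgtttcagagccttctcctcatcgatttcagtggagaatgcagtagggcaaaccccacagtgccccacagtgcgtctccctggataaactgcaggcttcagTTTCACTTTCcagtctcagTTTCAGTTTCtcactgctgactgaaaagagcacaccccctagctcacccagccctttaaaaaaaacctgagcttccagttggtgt
Isg15: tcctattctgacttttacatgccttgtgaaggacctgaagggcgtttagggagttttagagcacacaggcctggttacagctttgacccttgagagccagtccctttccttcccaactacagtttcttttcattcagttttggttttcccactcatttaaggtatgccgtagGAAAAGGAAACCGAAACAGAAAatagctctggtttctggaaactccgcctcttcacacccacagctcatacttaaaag
These windows lie at chr19:34583279-34583528 on the plus strand (Ifit3), chr12:26456453-26456702 on the minus strand (Rsad2), chr19:34640639-34640888 on the plus strand (Ifit1) and chr4:156200819-156201068 on the minus strand (Isg15), and each is written 5′ to 3′ along its gene. Ifit3 and Ifit1 held 2 copies each and Rsad2 1 copy, while the 3 copies in Isg15 overlap one another, and all began 66 to 156 bases before the start. None of the 4 windows had an Ikaros core that overlapped the element.

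Among the 47 other members, values of the loss and control libraries did not overlap for 42 genes with HEL, 33 with CpG and 30 in both. Over the 7630 genes such a lower, non-overlapping position was seen for 18.2% with HEL, 9.17% with CpG and 2.58% in both, but the rule used these contrasts, so nothing is read from these counts. Among the 12 interferon-inducible members, the groups overlapped for every gene in both stimuli. Their median log2 ratio was -0.96 with HEL and -2.23 with CpG, against -0.86 and -0.92 for the other members and -0.09 and 0.00 for the 7630 genes. In all, 15 members were 2-fold lower or more in both stimuli, 5 interferon-inducible genes and 10 others.

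**Figure D1:**
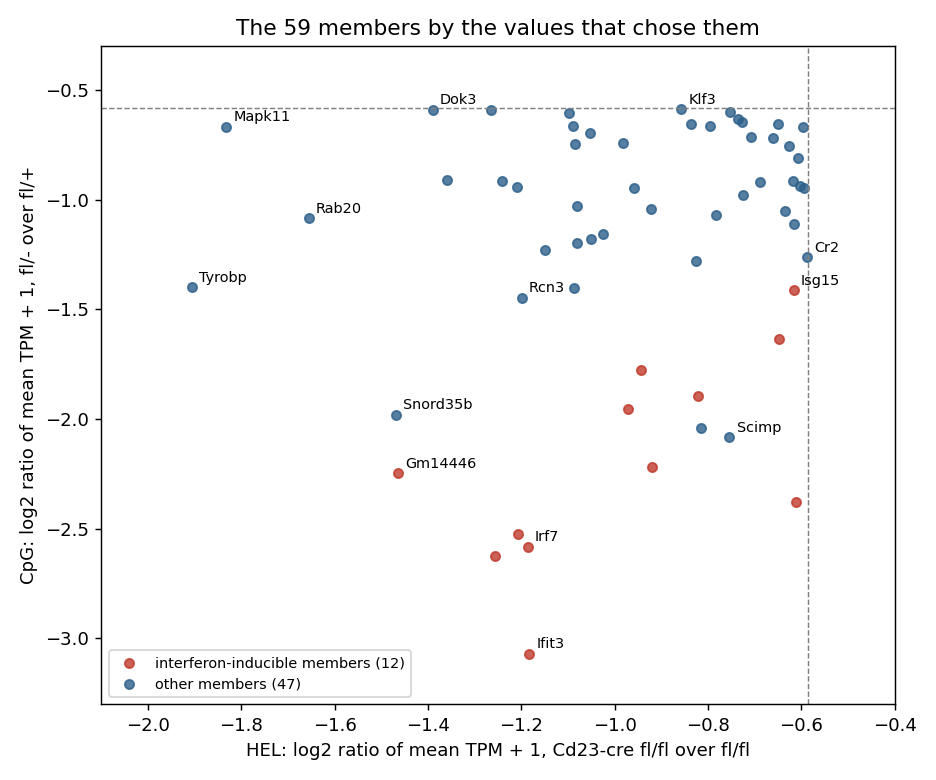
Each point is 1 of the 59 members, placed by its log2 ratio of group mean TPM + 1 with HEL (x axis) and with CpG (y axis); dashed lines mark the threshold of -0.585 and colours separate the 12 interferon-inducible from the 47 other members. All 12 interferon-inducible members had a lower ratio with CpG than with HEL, while among the others 26 were lower with CpG and 21 with HEL.

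Irf7, the interferon regulatory factor that amplifies type I interferon, showed the pattern of this set. After HEL it was at 266, 146, 127, 129 and 34.6 TPM in controls (replicates 1 to 5) and at 91.5, 52.5, 70.5, 47.9 and 44.2 TPM in Ikaros loss libraries. Control replicate 5 lay below all 5 loss libraries, and control replicate 1 lay far above the other controls. After CpG it was at 4.22, 152, 1096 and 673 TPM in fl/+ libraries and at 1.21, 3.15, 76.3 and 237 TPM in fl/- libraries. The library numbers of the CpG samples form a first block (replicates 1 and 2 of both genotypes) and a second (replicates 3 and 4), and the first held the low values of both genotypes.

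Ifit3, whose protein binds partners that trap viral RNA, went the same way. With HEL its controls were at 76.9, 41.1, 32.4, 29.1 and 9.36 TPM and the loss libraries at 23.4, 13.0, 20.01, 11.9 and 12.02 TPM. With CpG the fl/+ libraries were at 0, 1.42, 34.6 and 18.6 TPM and the fl/- libraries at 0, 0, 0.654 and 2.33 TPM. The antiviral enzyme Rsad2 (viperin) was at 0.0406, 4.69, 44.2 and 26.6 TPM in fl/+ cells and at 0, 0.0673, 2.24 and 6.57 TPM in fl/- cells. Isg15, a ubiquitin-like modifier, reached 1488 and 1095 TPM in the second block of fl/+ cells and 289 and 754 TPM in fl/- cells of that block. In the second block alone, all 12 genes were past the threshold, and in the first block 11 were. Over the 7630 genes, 482 and 297 were. The rule used these libraries, so nothing is read from these counts.

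The 12 genes moved together from library to library. Their median distance from the control mean of log2(TPM + 1) ran from -2.89 to 2.05 among the fl/+ libraries with CpG. Among the HEL controls it ran from -1.44 to 1.00. For the 47 other members the same median stayed between -0.15 and 0.06 in the CpG controls and between -0.04 and 0.08 in the HEL controls. Control levels of all 12 were 2-fold or more higher in the second CpG block than in the first, as were those of 7 other members: Tbx21, Cebpb, Dusp5, Capn5, Hsh2d, BC051226 and the model without a symbol. Such a difference was seen in 1.89% of the 7630 genes. The control mean of 5 TPM was taken over both blocks, and some members, such as Ifit3, reached it only through the second. Nothing is therefore read from this count. Without HEL control replicate 1, 7 of the 12 interferon-inducible members and 43 of the 47 others still met the rule. With HEL libraries from male mice only (2 against 2), 7 and 34 did, and with those from female mice only (3 against 3) all 59 did.

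The wider list of interferon-stimulated genes had lower group means mainly with CpG. Of its 36 members with a control mean of 5 TPM or more, 32 were past the threshold with CpG (median -1.21). With HEL the 7 named above were past it (median of the 36, -0.19). Over all 7630 genes with such a mean, 348 were past it with CpG and 224 with HEL. Since the rule used these libraries, nothing is read from these counts. Summed over the whole list, the CpG groups overlapped, at 508 to 8919 TPM in fl/+ and 478 to 3953 TPM in fl/- cells. Markers of other cells varied across the same CpG libraries: macrophage and monocyte markers summed to 5.90 to 367 TPM in fl/+ and 7.89 to 130 TPM in fl/- cells, and dendritic markers to 149 to 1495 and 158 to 746 TPM. The dendritic list holds Bst2, itself inducible by interferon. The part of such cells in the interferon values was not tested.

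Among surface proteins and ligands, Icosl, the ligand of the T cell costimulator Icos, was at 287, 263, 266, 257 and 281 TPM in HEL controls and at 143, 162, 199, 191 and 191 TPM in loss libraries. With CpG it was at 50.3, 48.0, 45.6 and 51.4 TPM in fl/+ cells and at 27.1, 31.2, 24.3 and 26.8 TPM in fl/- cells. The groups did not overlap in either stimulus, and both ratios were modest (-0.61 and -0.81). Itgb7, the integrin beta chain for homing to the gut, was at 298 to 340.2 TPM in HEL controls and at 130.4 to 184 TPM in loss libraries. After CpG its level was low in both genotypes, at 4.53 to 12.9 TPM in fl/+ cells and 2.05 to 3.19 TPM in fl/- cells. The highest fl/+ value was that of replicate 1, and the others were at 4.53 to 5.12 TPM. Itgb7 thus reached the required control mean of 5 TPM only through that library. Cr2 (CD21), the complement receptor of mature B cells, lay nearest the threshold with HEL, at 49.4 to 70.2 against 34.0 to 47.7 TPM. The acid-sensing receptor Gpr65 (ratios -1.09 and -1.40) and the ectoenzyme Enpp1 (-1.15 and -1.23) also belong to this set.

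Receptor adaptors included Tyrobp, which carries an activating motif for receptors of NK and myeloid cells and had the lowest HEL ratio of all members (-1.91). Its controls were at 87.7, 78.9, 71.9, 94.9 and 99.0 TPM with HEL, and the loss libraries at 17.6, 27.8, 24.5, 24.3 and 17.4 TPM. With CpG it was at 47.8, 21.8, 28.3 and 24.2 TPM in fl/+ cells and at 10.04, 11.9, 10.8 and 11.04 TPM in fl/- cells. The groups were apart in both stimuli. Its neighbour in the genome and in function, Hcst (DAP10), was lower alongside it (-0.96 and -0.95). With HEL, macrophage and monocyte markers summed to 31.5 to 140 TPM in controls and 202 to 308 TPM in loss libraries. T and NK cell markers summed to 22.7 TPM or less in these 10 libraries. The part of such cells in the Tyrobp and Hcst values was not tested.

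Dok3, an adaptor that dampens B cell receptor signalling, was at 345 to 364 TPM in HEL controls and at 126 to 148 TPM in loss libraries. With CpG it only just passed, at 28.8, 13.3, 20.2 and 21.0 TPM in fl/+ against 16.2, 19.3, 9.46 and 9.11 TPM in fl/- cells, and the groups overlapped. The first CpG block alone gave -0.24 and the second -1.07. Scimp, a scaffold in antigen presentation, had the lowest CpG ratio among the non-interferon members (-2.08), at 3.06, 4.32, 9.12 and 6.81 TPM in fl/+ and 0.897, 0.846, 0.124 and 0.581 TPM in fl/- cells. With HEL the Scimp groups overlapped, at 27.1 to 38.9 TPM in controls and 16.2 to 27.4 TPM in loss libraries. Lax1, which also restrains antigen receptor signals, had ratios of -1.09 and -0.74. Of 36 genes on a list of B cell receptor signalling with a sufficient control mean, Dok3 and Scimp were members, as were 59 of all 7630 such genes.

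Enzymes and regulators of signalling were lower with widely different ratios. The p38 kinase gene Mapk11 was at 36.7 to 64.5 TPM in HEL controls and 8.21 to 14.9 TPM in loss libraries (-1.83), but with CpG the groups overlapped (-0.67). Dusp5, a nuclear phosphatase that acts on ERK, was at 4.48 to 9.49 against 1.66 to 3.73 TPM with HEL. The remaining enzymes in this set were the lipid phosphatase Inpp5f, the Rac regulator Arhgap24 and the calpain Capn5. Ubiquitin ligases were Dtx1, a Notch target, with ratios of -1.27 and -0.59, Rnf144a (-1.36 and -0.91) and March9 (-1.09 and -0.66).

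Among transcription factors, Stat4, which carries interleukin 12 signals, was at 27.4 to 34.8 TPM in HEL controls and at 13.6 to 15.7 TPM in loss libraries. The CpG ranges were 9.13 to 15.1 against 4.75 to 6.99 TPM. Tbx21, which encodes T-bet, a factor of the Th1 programme and of some memory B cells, was at 6.82, 7.72, 9.64, 9.26 and 4.94 TPM with HEL in controls and at 4.65, 3.54, 1.62, 3.17 and 2.95 TPM in loss libraries. With CpG the blocks disagreed: fl/+ cells were at 1.39 and 1.55 TPM in the first and 16.7 and 14.3 TPM in the second, and fl/- cells at 2.60 and 2.20, then 5.22 and 9.41 TPM. Tbx21 was thus higher without Ikaros in the first block (0.46) and lower in the second (-0.99). The other factors were Klf3, which lay just inside the CpG threshold (-0.59), Cebpb (-0.75 and -0.60) and the elongation factor Ell3 (-1.24 and -0.91). The Cebpb groups overlapped in both stimuli, and those of Ell3 overlapped with CpG. For Klf3 the first CpG block alone gave -0.34 and the second -0.86, and for Cebpb -0.21 and -0.77.

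Of the proteins of membrane traffic and the secretory pathway, all 6 were apart in both stimuli and past the threshold in both CpG blocks. Of the 47 non-interferon members, which include these 6, 30 were apart in both stimuli and 34 past it in both blocks. Over the 7630 genes the numbers were 197 and 212. The rule used these libraries, so nothing is read from these counts. Rab20, a small GTPase of phagosomes and endosomes, was at 12.8, 10.1, 11.9, 18.1 and 14.3 TPM in HEL controls and at 2.84, 4.86, 2.46, 4.55 and 3.22 TPM in loss libraries. With CpG it was at 23.6, 19.5, 18.3 and 14.3 TPM in fl/+ cells and at 7.87, 8.30, 9.95 and 7.47 TPM in fl/- cells. The endosomal recycling proteins Ehd1 (-0.63 and -0.76) and Ehd3 (-0.72 and -0.98), Leprotl1 (-0.83 and -1.28), Pacs1 (-0.98 and -0.74) and Rcn3 (-1.20 and -1.45) were the rest of the set.

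Of the remaining members, Snord35b, a small nucleolar RNA that lies inside a ribosomal protein gene, was at 101 to 115 TPM in HEL controls and at 35.0 to 43.5 TPM in loss libraries. Its CpG values were 3.58 to 9.12 TPM for fl/+ and 0 for 3 of the 4 fl/- libraries. Such RNAs carry no poly(A) tail and the libraries were made from polyadenylated RNA, so its level is uncertain. Crip1, a small LIM protein, was the most abundant member with HEL, at 1227 to 1887 against 657 to 905 TPM. Gimap3, a GTPase of lymphocyte survival, was at 223 to 281 against 81.8 to 125 TPM.

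Around the threshold the values ran on without a gap. The members nearest to it were Cr2 (HEL ratio -0.588), Klf3 (CpG ratio -0.588) and Dok3 (CpG ratio -0.590). Just outside lay Faim3 (HEL ratio -0.583), Tmem66 (-0.580) and Vasp (-0.576), all of which were past it with CpG.

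**Figure D2:**
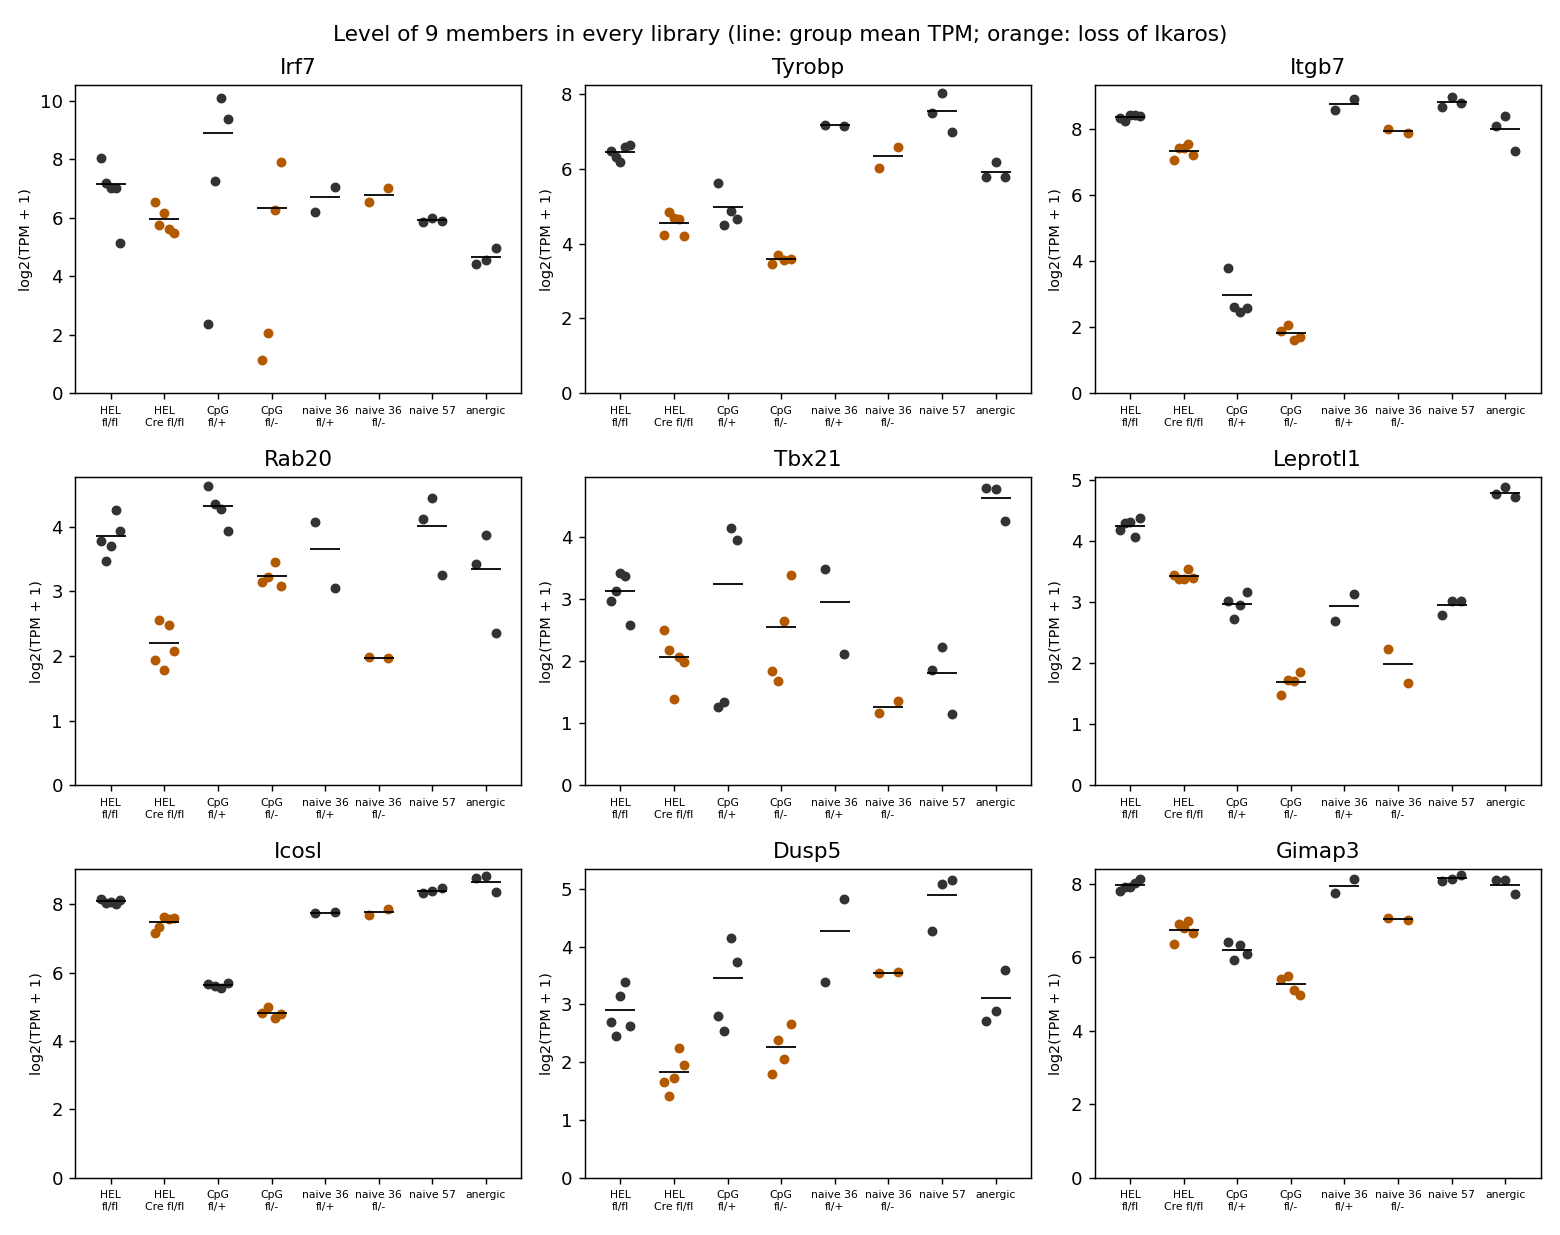
Levels of 9 members as log2(TPM + 1) on the y axis in every library of the 8 groups on the x axis; a line marks the group mean TPM and orange points are libraries with loss of Ikaros. Tyrobp, Rab20, Leprotl1, Icosl, Itgb7 and Gimap3 were apart between genotypes with HEL and CpG, Irf7 was not, and Tbx21 and Leprotl1 were highest in anergic cells.

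In naive cells the question was whether the members are lower before any stimulus. Among the 47 non-interferon members 24 were 1.5-fold lower or more in fl/- than in fl/+ cells (the share over 7629 genes was 3.46%), and none of the 12 interferon-inducible members were. Their median log2 ratios were -0.59 and 0.08, against -0.12 over the 7629 genes. Without fl/+ replicate 1, 27 members were 1.5-fold lower, 3 of them interferon-inducible, and the share over all genes was 8.27%. Without fl/- replicate 1, 24 members were, and the share was 14.2%. With median-ratio scaling the median over the 7629 genes was -0.01, and 23 members were 1.5-fold lower, against 1.91% of genes. Of all 59 members 45 were below 0, against 70.5% of those genes. The lowest among members with a gene symbol were Tbx21 (-1.68), Rab20 (-1.68), Snord35b (-1.20) and March9 (-1.11). Cebpb, a factor of myeloid and inflammatory genes, was the 1 member 1.5-fold higher (0.62; 1.19% of the 7629 genes).

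No member passed the test in naive cells. In limma, on log2(TPM + 1) with Benjamini-Hochberg adjustment over 10053 genes, 0 members were called lower and 0 higher, as against 0.0% and 0.0199% of all genes. At an unadjusted p under 0.05, 25 members were lower and 1 higher, against 5.92% of all genes for lower. The smallest adjusted p was 0.0859, for Sfn, the 14-3-3 sigma protein, at 102 and 119 TPM in fl/+ and 53.4 and 51.3 TPM in fl/- cells. With sex, as read from Y-linked transcripts, as a term in limma, 16 members were called lower, out of 136 genes called lower. All 16 were outside the interferon set. With 2 libraries per group, this added term left very little from which to estimate spread.

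Rab20 was at 15.8 and 7.30 TPM in naive fl/+ cells and at 2.95 and 2.91 TPM in fl/- cells (difference -1.59 ± 0.33 SE, n = 2 and 2, adjusted p = 0.136 in limma). Tbx21 was at 10.2 and 3.33 against 1.25 and 1.57 TPM, and the fl/+ libraries of both genes lay far apart. Tyrobp (143 and 142 against 64.4 and 95.7 TPM), Itgb7 (379 and 470.1 against 255 and 231 TPM), Gimap3 (214 and 279 against 133 and 129 TPM) and Dok3 (253 and 249.5 against 133 and 169 TPM) were apart between genotypes. All 6 traffic proteins were 1.5-fold lower or more, at -0.74 to -1.68. So were 24 of the 47 non-interferon members, which include these 6, and 3.46% of the 7629 genes. Roles were assigned after the values were seen, so nothing is read from the count of 6. In 31 members all fl/- values were below all fl/+ values, against 29.8% of the 7629 genes.

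Other members differed little before stimulation. Icosl was at 213 and 218 TPM in fl/+ and 205 and 234 TPM in fl/- cells (0.02 ± 0.14, adjusted p = 0.967 in limma), and Cr2 at 61.1 and 48.7 against 62.9 and 49.6 TPM (0.03 ± 0.20, adjusted p = 0.963 in limma). Dtx1 was at 181 and 113 against 183 and 126 TPM. With 2 libraries per group these intervals are wide, and the difference between naive and stimulated cells was not tested. Markers of other cells were present in this series: T and NK markers summed to 99.2 to 115 TPM in fl/+ and 77.5 to 111 TPM in fl/- cells, neutrophil markers to 42.2 to 116 and 26.6 to 90.8 TPM, and macrophage and monocyte markers to 123 to 181 and 212 to 316 TPM. Tbx21, Stat4, Tyrobp and Hcst are expressed in such cells too, and the part of these cells was not tested.

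**Figure D3:**
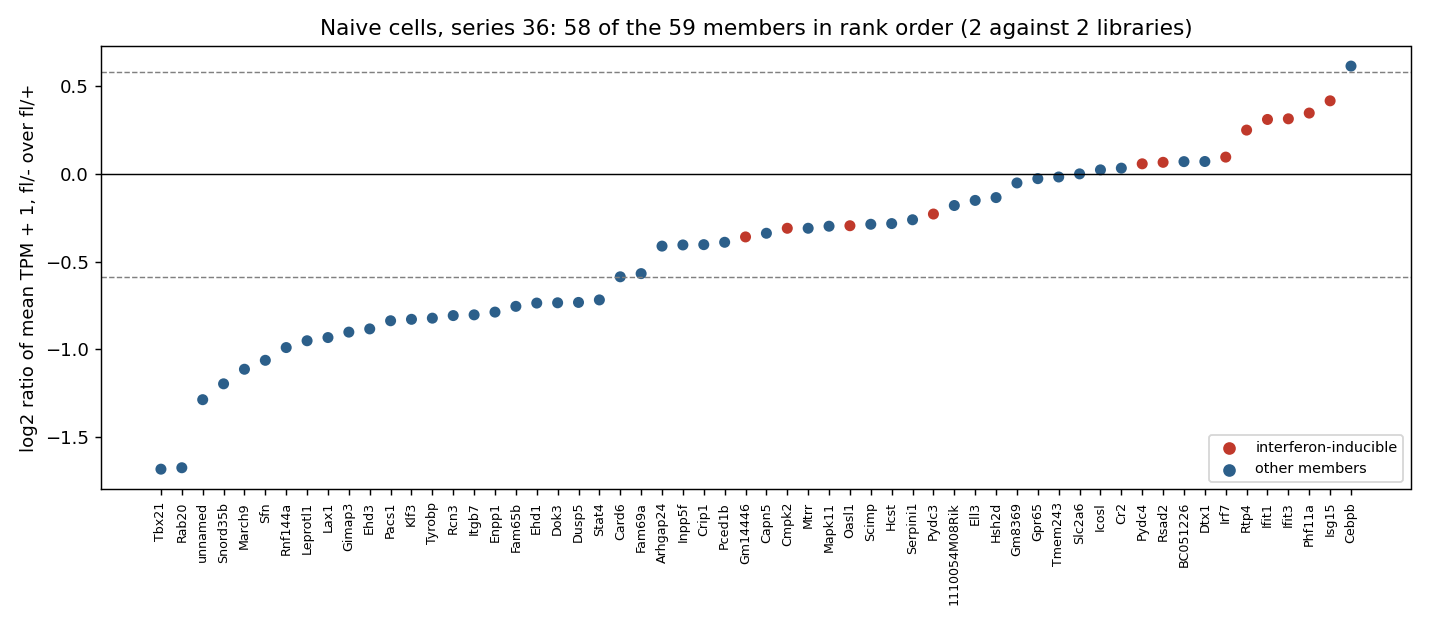
The plot shows 58 of the 59 members in rank order by the log2 ratio of mean TPM + 1, fl/- over fl/+, in naive cells of series 36 (2 against 2 libraries); dashed lines mark 1.5-fold. The 12 interferon-inducible members lie between -0.36 and 0.42, and all other members lie between -1.68 and 0.62.

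In anergic cells, which have Ikaros but are chronically exposed to antigen, the members split in both directions. Against naive cells of the same series, limma called 8 members higher and 8 lower, and 43 did not pass. Over the 10519 genes tested, 4.48% were called higher and 2.89% lower. The 8 raised genes were all outside the interferon set: Tbx21, Leprotl1, Ehd3, Capn5, Arhgap24, Ehd1, 1110054M08Rik and BC051226. Of the 8 lowered genes 4 were interferon-inducible (Irf7, Oasl1, Ifit1 and Pydc3), and the others were Dusp5, Tyrobp, Crip1 and Cebpb. The median difference was -0.75 for the interferon-inducible members, 0.21 for the others and 0.07 over all genes tested.

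Tbx21 was at 2.64, 3.69 and 1.21 TPM in naive cells and at 26.3, 26.2 and 17.95 TPM in anergic cells. It had the largest rise of any member (2.85 ± 0.27 SE on the log2 scale, n = 3 and 3, adjusted p = 0.000949 in limma). Leprotl1, a regulator of receptor levels at the cell surface, was at 5.90, 7.11 and 7.16 TPM in naive and 26.2, 28.5 and 25.5 TPM in anergic cells (1.85 ± 0.11, adjusted p = 0.000105 in limma). In the fl/fl controls after 1 day of HEL it was at 15.9 to 19.9 TPM. Those controls helped to choose the members and favour genes with high values there, so nothing is read from this level. Ehd3 was at 5.39, 8.06 and 4.96 TPM in naive and 26.1, 24.5 and 15.1 TPM in anergic cells (1.67 ± 0.23, adjusted p = 0.00458 in limma), and the related Ehd1 rose by less, from 143, 155 and 159.6 to 235, 279.7 and 222 TPM (0.68 ± 0.11). Capn5 (1.14 ± 0.14) and Arhgap24 (1.11 ± 0.10) also rose. The Ehd1 call was lost without naive fl/+ replicate 1 (adjusted p = 0.0526 in limma), and those of 1110054M08Rik and BC051226 without either naive fl/+ library (highest adjusted p over the alternatives, 0.0967 and 0.0628). Of these 8, Tbx21, Leprotl1, Ehd3 and Ehd1 were among the 24 of 47 non-interferon members that were 1.5-fold lower in naive fl/- cells. Tyrobp and Dusp5, which were called lower in anergic cells, were among the 24 too. The share among the 8 is near that of the 47, so nothing is read from it.

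Dusp5 was at 18.2, 33.0 and 34.6 TPM in naive and 5.58, 6.36 and 11.1 TPM in anergic cells (-1.77 ± 0.29, n = 3 and 3, adjusted p = 0.00992 in limma). Its call was lost without the anergic replicate 1 or the naive Cre library (highest adjusted p = 0.0585). Tyrobp was at 178, 258 and 126 against 54.0, 72.2 and 53.6 TPM (-1.58 ± 0.24, adjusted p = 0.00723 in limma), a call that was lost without anergic replicate 1 (adjusted p = 0.0522). Crip1 was at 2723, 3158 and 2376 against 1003, 1317 and 912 TPM (-1.36 ± 0.16, adjusted p = 0.0023 in limma). These 3 genes were lower in anergic cells as well as in the stimulated loss libraries, and the naive and anergic groups did not overlap. Macrophage and monocyte markers summed to 47.7 to 77.5 TPM in naive and 13.6 to 116 TPM in anergic cells, and their part in the Tyrobp value was not tested.

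Irf7 was at 57.4, 62.2 and 58.1 TPM in naive and 20.3, 22.6 and 30.6 TPM in anergic cells (-1.26 ± 0.15, n = 3 and 3, adjusted p = 0.00229 in limma). Oasl1, an antiviral relative of the oligoadenylate synthetases, was at 33.1, 33.2 and 29.5 against 12.2, 11.8 and 14.0 TPM (-1.27 ± 0.11, adjusted p = 0.000505 in limma). Ifit1 (-1.12 ± 0.23), Pydc3 (-0.54 ± 0.11) and Cebpb (-0.98 ± 0.22) fell too, but each call was lost without any 1 of the 3 naive libraries (highest adjusted p over the alternatives, 0.101, 0.119 and 0.132). Ifit3 was at 9.37, 6.34 and 6.48 against 4.07, 1.61 and 8.59 TPM and did not pass (-0.72 ± 0.41, adjusted p = 0.343). On the wider interferon list 10 of 36 tested genes fell and 2 rose (median -0.54). Dendritic cell markers, which include Bst2, were lower as well, summing to 169.9 to 203 TPM in naive and 79.7 to 112 TPM in anergic cells, and their part was not tested. In the controls of the HEL comparison all 12 interferon-inducible members were 1.5-fold or more above the same naive libraries (median 1.23; 3.75% of the 7630 genes were). The rule favoured genes with high values in these controls, so this is a description from which nothing is read. Both comparisons share the naive libraries, and HEL-exposed and anergic cells were not tested against each other.

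The anergic library with Cd23-Cre Ikzf1(fl/+) had less Ikzf1, 179 TPM against 304 and 319 TPM in the anergic libraries without Cre. It also held the lowest of the 3 anergic values for 38 of the 47 non-interferon members (80.9%) and for none of the 12 interferon-inducible ones, against 51.4% of the 7630 genes. Itgb7 was at 158 TPM there and at 268 and 333 TPM in the others, Sfn at 90.4 against 159.9 and 205 TPM, and Rab20 at 4.09 against 9.70 and 13.6 TPM. In naive cells of the series the Cre library was at 146 TPM of Ikzf1 against 142 and 219 TPM, and it was the lowest for 11 of the 47 (23.4%) and for 6 of the 12 interferon-inducible members, against 18.8% of all genes. A single library has no replicate, so this is a description.

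**Figure D4:**
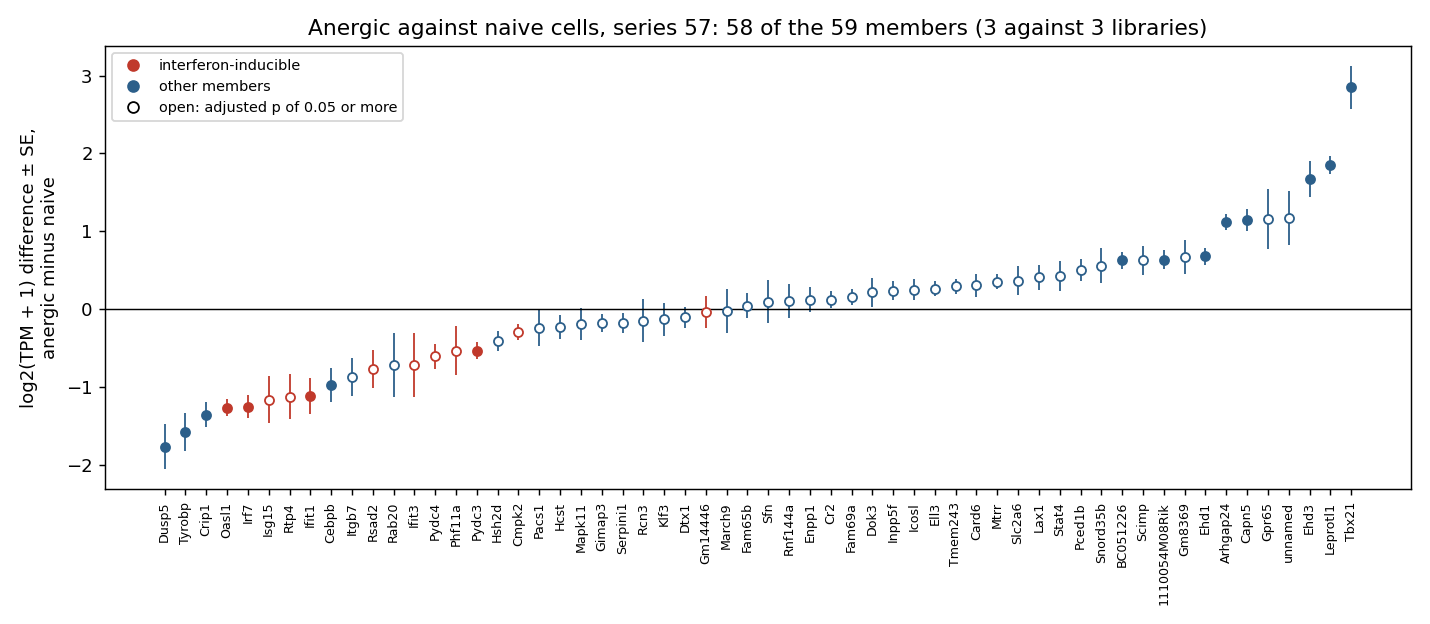
Difference in log2(TPM + 1) between anergic and naive cells of series 57 with its standard error for 58 of the 59 members, in rank order (3 against 3 libraries); filled points passed an adjusted p of 0.05 in limma. Tbx21 lies highest at 2.85 and Dusp5 lowest at -1.77, and all 12 interferon-inducible members lie below 0.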

How the data were processed

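RNA-seq of 28 FO B cell libraries was used; not analysed here were 4 samples of ChIP-seq and 8 of ATAC-seq. The authors deposited TPM in 1 file per library, each with 24732 genes. The submitters' processing notes name mm9, SAMtools 1.4, deepTools 3.0.1, featureCounts 1.5.0, Bowtie and TopHat 1.4.1. What each tool did, the annotation and the strandedness are not given in the sources used here. Because TPM steps within a gene are those of single reads, read numbers could be recovered, within 0.01 of a whole, for all 18843 genes above 0 in any library. No replicate pair agreed within sampling noise (lowest chi-square per gene 6.63).

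The members and lists were chosen with earlier results of these data known. Groups came from genotype and cell preparation in the labels, and comparisons stayed within a series of library numbers. The rule was applied to group mean TPM with a pseudocount of 1. Naive and anergic comparisons used limma 3.58.1 under R 4.3.3 for log2(TPM + 1), with trend, two-sided, and Benjamini-Hochberg adjustment over all genes that reached 1 TPM in as many libraries as the smaller group holds, or more. The threshold was an adjusted p of 0.05. On this scale fold changes of low genes are understated. The fit was tested on simulated data.

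Genes named with values were, among members with a gene symbol, the 12 with the lowest mean ratio, 3 on each side of the threshold, up to 8 called per direction, the 4 lowest and 4 highest in naive cells, up to 4 per list, and Ikzf1. Other members were named after their values were seen, and roles were assigned then too. The values of 1 member are not reported here; it is in all counts and medians. Alternatives were another pseudocount, no filter, median-ratio scaling, limma-voom on recovered reads, other thresholds, single CpG blocks, sex as a term, leaving out Cre libraries and leaving out each library. Using HEL libraries of 1 sex was added after seeing the data.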

Additional observations from a re-analysis of the deposited data

Results flagged for a closer look

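Among the named members, 128 sets of values (each gene in each HEL and CpG group) were searched for a library far from the others on the log2(TPM + 1) scale. Of these 4 were found, fewer than the 1 in 20 that chance gives for independent sets of normally spread values. The search looks for 1 far library at a time and misses groups that split by CpG block. No conclusion is drawn from this number. Snord35b was at 2.96 TPM in CpG fl/- replicate 2 and at 0 in the other 3 libraries of that group. Phf11a was at 5.61 TPM in HEL Cd23-cre fl/fl replicate 4, below the 9.75 to 11.3 TPM of the other 4. Klf3 was at 73.0 TPM in the same library, above the 45.7 to 50.1 TPM of the others. Itgb7 was at 12.9 TPM in CpG fl/+ replicate 1, above the 4.53 to 5.12 TPM of the other 3.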

How the results depend on the processing

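The rule found 59 genes and gave 47 to 62 with a pseudocount of 0.1 or median-ratio scaling, 45 and 68 with the first or second CpG block alone, and 50 and 82 with HEL libraries of males or females only. It gave 100 at a control mean of 1 TPM and 15 at 2-fold. Leaving out each library gave 51 to 66 genes. In naive cells 0 members were called lower, but 2 with voom on recovered reads, 16 with sex as a term, and 2 to 9 without 1 library; 0 were called higher in each of these. The 24 members 1.5-fold lower became 21 to 27, and the share of all genes, 3.46%, became 1.91% to 14.2%. In anergic cells the 8 lower calls became 5 without the filter on low TPM, 13 with voom and 4 to 12 without 1 library. The 8 higher calls became 5 to 14 without 1 library. Tbx21, Leprotl1, Ehd3, Capn5, Arhgap24, Irf7, Oasl1 and Crip1 passed in all 11 alternatives. The other calls named were lost in at least 1, among them Cebpb in 7, Ifit1, Pydc3 and 1110054M08Rik in 5, BC051226 in 3 and Ehd1 in 1. Beyond the term for sex in naive cells and the CpG blocks of library numbers, no paired analysis was possible because the labels of the libraries carry no replicate numbers. Sex as a term could not be fitted in the anergic comparison, where all 6 libraries were male. Depth is known only from recovered reads, and values under 1 TPM rest on few reads.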
